A study of Mus musculus with 9 samples.

Results

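The 7 mouse genes of iron and heme handling followed here across gels of increasing stiffness were Fth1, Ftl1, Tfrc, Slc40a1, Slc11a1, Hmox1 and Cd163. They were taken by gene symbol, and all 7 were present among the 22173 genes of the deposited count files. The samples were wild-type primary neutrophils from mouse bone marrow, embedded in gelatin methacryloyl hydrogel, a crosslinked gelatin, and cultured for 2 days in RPMI medium with 10% serum. Gel stiffness was 1.5 kPa in the low group, which served as control, 2.6 kPa in the middle group and 5.7 kPa in the high group. Each group had 3 libraries, numbered 1 to 3 in the labels. All groups shared the gel material, medium and culture time, and no group without a gel was analysed here. The labels do not say whether the replicates were separate mice or cultures, and a p-value here speaks for the spread among the libraries at hand, which could be technical.

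Cells take up transferrin-bound iron through the transferrin receptor, encoded by Tfrc. They store iron inside ferritin, a hollow shell of heavy chains (Fth1), which oxidise the iron, and light chains (Ftl1), which help to deposit it. Slc40a1 encodes ferroportin, which exports iron from cells, and Slc11a1 encodes NRAMP1, which moves divalent metals out of phagosomes in neutrophils and macrophages. Hmox1 encodes heme oxygenase 1, which opens heme to release its iron. Cd163 encodes a macrophage scavenger receptor for hemoglobin.

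Several of these mRNAs carry a short RNA hairpin, the iron-responsive element, which iron regulatory proteins bind when iron is scarce. Bound before the coding sequence, these proteins hold back translation, and bound after it in Tfrc they protect the mRNA from decay. The hairpins are shown because they separate the members into kinds for which an mRNA count says different things about the protein. A search of GENCODE M21 protein-coding transcripts (GRCm38) used the letters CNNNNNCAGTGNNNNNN on the transcript strand, with the 5 bases before and after the 6-base loop able to pair (G with T allowed). It found the motif in 4 of the 7 genes, and capitals mark the loop.
Fth1 5′ UTR, chr19:9982738-9982754, plus strand: cttcaaCAGTGCttgaa
Ftl1 5′ UTR, chr7:45459785-45459801, minus strand: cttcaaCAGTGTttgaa
Slc40a1 5′ UTR, chr1:45925471-45925487, minus strand: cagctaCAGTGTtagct
Tfrc 3′ UTR site 1, chr16:32631225-32631241, plus strand: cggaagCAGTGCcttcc
Tfrc 3′ UTR site 2, chr16:32631604-32631620, plus strand: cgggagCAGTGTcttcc
Tfrc 3′ UTR site 3, chr16:32631669-32631685, plus strand: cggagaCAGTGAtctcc
Tfrc 3′ UTR site 4, chr16:32631716-32631732, plus strand: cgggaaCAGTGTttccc

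Of the 21877 protein-coding genes searched, 31 (0.142%) held the motif in a 5′ UTR and 129 (0.59%) in a 3′ UTR. Tfrc was the 1 gene with at least 2 different sites in a 3′ UTR. No match was found in Slc11a1, Hmox1 or Cd163, which says only that these letters were not in the transcripts searched. A match is a description of the sequence and not a measured binding site.

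Deposited totals ran between 13.2 M and 19.5 M counts per library, and 12094 genes passed the filter on low counts, among them all 7 members. Values are normalised counts (CPM), that is counts scaled to a common library size with TMM factors. The clearest split of the libraries was replicate 1 against replicates 2 and 3, between which 7909 of the 12094 genes (65.4%) differed. Each comparison of gels is therefore given in edgeR without a term for the replicate number, and with the number as a block. "Rose" and "fell" mean a Benjamini-Hochberg adjusted p under 0.05 over all tested genes, in the fit named. All 12 neutrophil markers were detected in every library, and their sum was 3721 to 4425 CPM in replicate 1 against 15478 to 23640 CPM in replicates 2 and 3. Macrophage markers were present too, 10 of 12 passing the filter, with sums of 7148 to 8149 CPM in replicate 1 and 4853 to 7463 CPM in replicates 2 and 3. Gpnmb had the highest median of the 12, 3354 CPM (1165 to 5709 CPM over the libraries), so that sum depends most on 1 gene. The member levels are therefore not assigned to neutrophils alone, and in such bulk RNA fewer cells of a type cannot be told apart from less RNA per cell.

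Within replicate numbers, ferroportin mRNA was lower in high than in low gels, and ferritin heavy chain, NRAMP1 and Cd163 mRNA were higher. With the replicate number as a block, 4 of the 7 members passed the test between high and low gels: Fth1, Slc11a1 and Cd163 rose and Slc40a1 fell. In the same fit 15.5% of all tested genes passed, 6.72% higher and 8.73% lower. Without the block 0 of the 7 passed in edgeR, beside 11 of all genes (0.091%), and Slc11a1 was the 1 member with an unadjusted p under 0.05 (0.018), beside 934 of the 12094 genes. DESeq2 without the block called 1 member, Slc11a1 (adjusted p = 0.0388), beside 333 genes (2.76%). An F test among the 3 gels passed 3 members with the block (Slc40a1, Slc11a1 and Cd163), beside 9% of all genes, and 0 members without it. The median log2 fold change of the 7 members was 0.36 with the block, beside a median of -0.003 over all tested genes. That median is the value of Fth1, and the members ranged from -0.81 (Slc40a1) to 2.02 (Cd163). They were chosen with earlier results of these data known and were not tested as a set.

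The step-by-step order of the gels gave a similar picture within each replicate number. Fth1 and Slc11a1 had higher levels at each step from low through middle to high gels in replicates 1, 2 and 3, and Slc40a1 had lower levels at each step. Such an order in every replicate number was held by 10.7% of all tested genes, 5.1% upward and 5.61% downward.

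**Figure D1:**
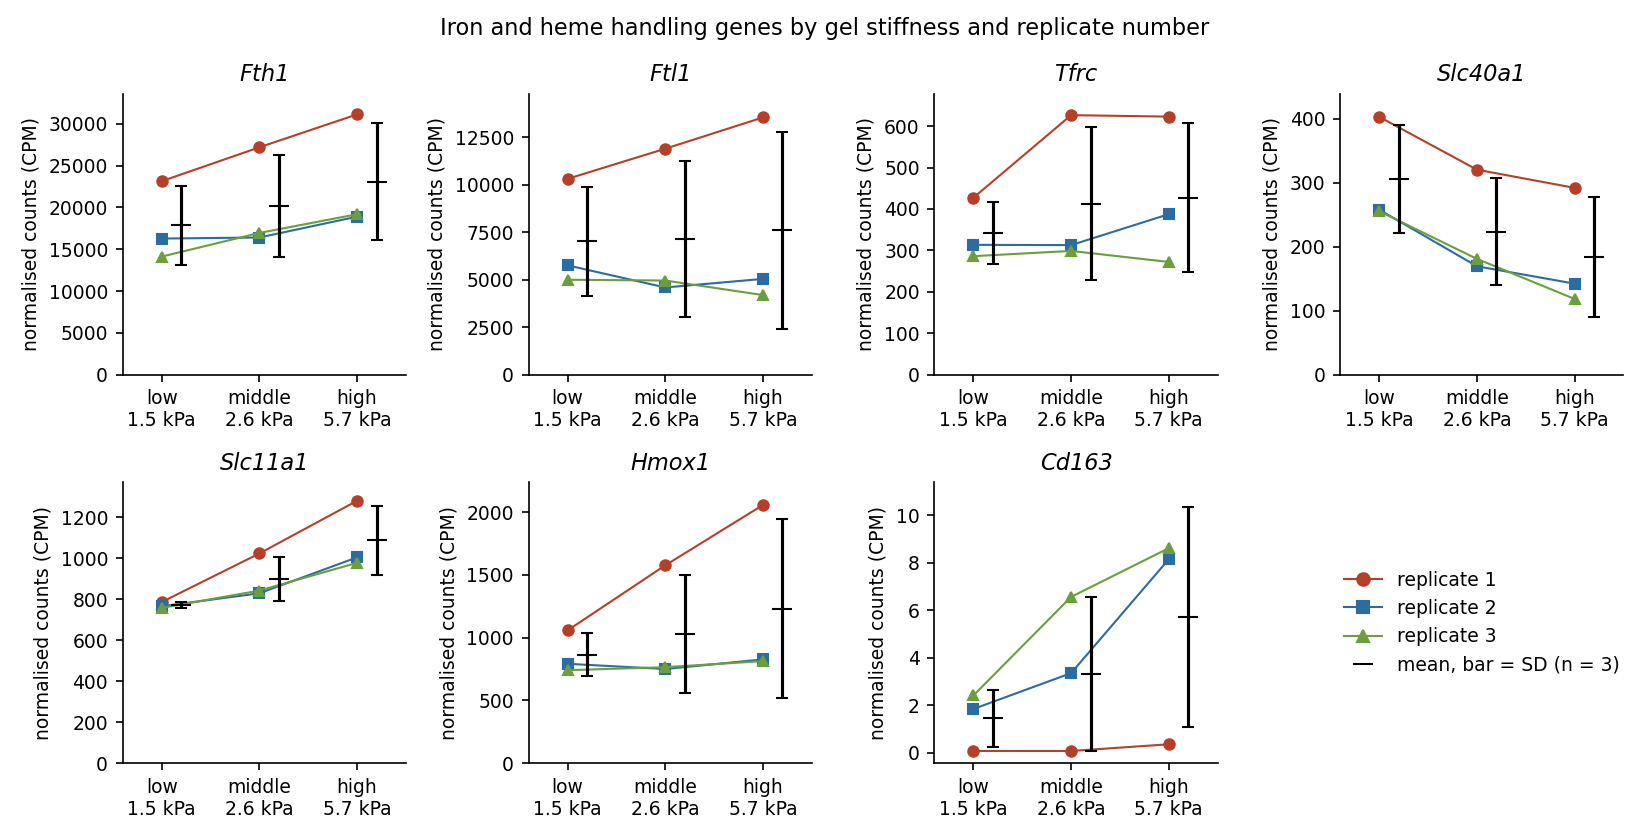
Normalised counts (CPM, linear axes) of the 7 genes in low, middle and high gels, with 1 line per replicate number and the group mean ± SD (n = 3) in black. Replicate 1 lies above the others for Fth1, Ftl1, Tfrc, Slc40a1, Slc11a1 and Hmox1 in every gel and below them for Cd163, and Slc40a1 declines with stiffness in every replicate number.

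Fth1 was the most abundant mRNA of all 22173 genes by mean CPM. It stood at 23131, 16274 and 14116 CPM in low replicates 1 to 3, at 27185, 16400 and 16945 CPM in middle, and at 31116, 18892 and 19181 CPM in high. Replicate 1 was highest in each gel, and the groups overlapped, with means ± SD of 17840 ± 4707, 20176 ± 6076 and 23063 ± 6976 CPM from low to high (n = 3 each). High replicates were nonetheless above the low library of the same number by 1.35-fold, 1.16-fold and 1.36-fold in replicates 1, 2 and 3. The log2 fold change of high over low was 0.36 ± 0.11 (SE) with the block, at an adjusted p of 0.0499 in edgeR, just under the threshold, and 0.37 ± 0.33 (adjusted p = 0.946) without it. In the 9 fits with the block that left out 1 library the log2 fold change stayed between 0.33 and 0.45. The call was kept only without low replicate 1 (adjusted p = 0.0436 in edgeR) and was lost in the other 8 fits, at adjusted p up to 0.221. It was also lost with the block when libraries were scaled by their totals alone (0.31 ± 0.11, adjusted p = 0.0765 in edgeR). In replicates 2 and 3 alone, where 26.3% of all genes passed, Fth1 passed too (0.32 ± 0.09, adjusted p = 0.0189 in edgeR). Between middle and low gels (0.17 ± 0.11 with the block) and between high and middle gels (0.19 ± 0.11) it did not pass.

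Ftl1, the light chain, had the fourth highest mean CPM of all genes and gave no call between gels. It stood at 10313, 5757 and 4999 CPM in low replicates 1 to 3, at 11900, 4593 and 4958 CPM in middle, and at 13547, 5043 and 4193 CPM in high. In replicate 1 the level increased with stiffness, and in replicates 2 and 3 the high gel was below the low gel, so the groups overlapped throughout. The within-number log2 differences of high minus low were 0.39, -0.19 and -0.25 in replicates 1, 2 and 3. With the block the log2 fold change was -0.018 ± 0.14 (adjusted p = 0.943 in edgeR), and without it 0.11 ± 0.57. Near-identical processed copies of both ferritin genes exist in the mouse genome, and no source used here states how shared reads were counted, so the absolute levels of Fth1 and Ftl1 are uncertain to that extent. Of the other ferritin genes in the files, 0 of 8 passed the filter, and Ftl1-ps2 stayed between 0.0683 and 0.17 CPM.

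Heavy and light chain mRNA were compared per length within a library, with close exonic sizes (942 and 970 bases in the files). How reads shared with processed copies were counted is not stated, so the ratio of Fth1 to Ftl1 is uncertain to that extent too. Fth1 exceeded Ftl1 in all 9 libraries. The ratio of counts per kilobase was 2.31, 2.91 and 2.91 in low replicates 1 to 3, 2.35, 3.68 and 3.52 in middle, and 2.37, 3.86 and 4.71 in high. In replicate 1 it was nearly flat, differing 1.02-fold between high and low, and in replicates 2 and 3 it was 1.33-fold and 1.62-fold higher in high. The difference of the mean log2 ratio, high minus low, was 0.38, with p = 0.3 in a two-sided exact permutation test that cannot go below 0.1 with 3 libraries against 3. Together the ferritin genes took 4.46%, 2.33% and 2.25% of all gene counts in high replicates 1 to 3, against 3.37%, 2.22% and 1.95% in low replicates 1 to 3. That share was higher in high than in low within every replicate number, but the groups overlapped (exact permutation p = 0.5, two-sided).

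**Figure D2:**
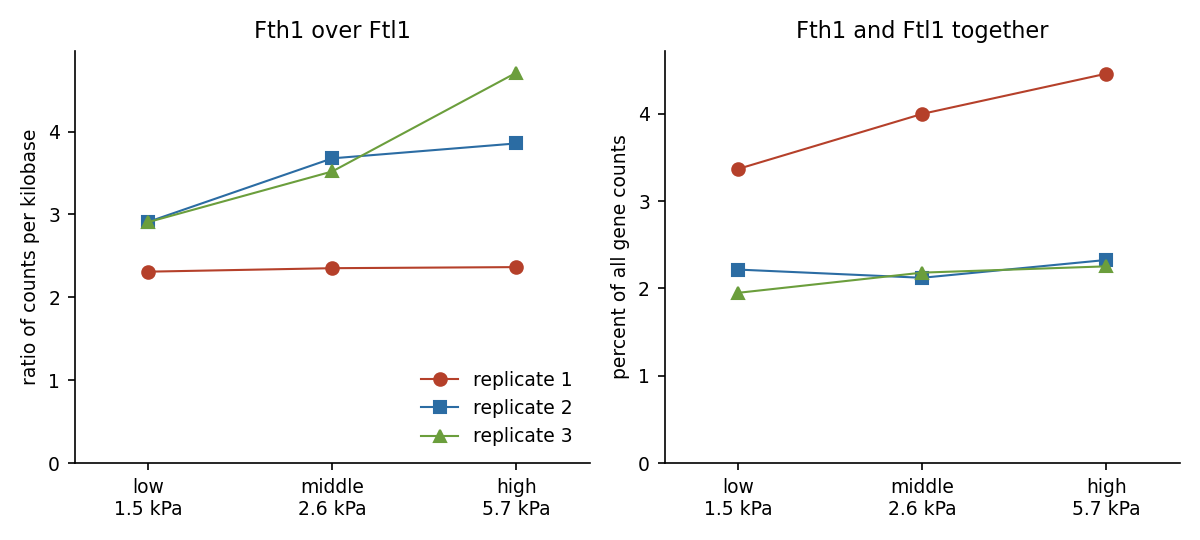
Left, ratio of Fth1 to Ftl1 counts per kilobase, and right, the percent of all gene counts taken by both genes, in low, middle and high gels with 1 line per replicate number. The ratio lies at 2.31 to 2.37 in replicate 1 and reaches 3.86 and 4.71 in high replicates 2 and 3, while the share is largest in replicate 1 of each gel.

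Ferroportin showed the opposite direction to Fth1. Slc40a1 stood at 403, 258 and 255 CPM in low replicates 1 to 3, at 320, 169 and 181 CPM in middle, and at 292, 142 and 118 CPM in high. Within each replicate number the level was lowest in the high gel, yet high replicate 1 lay above low replicates 2 and 3, so the groups overlapped (means ± SD 305 ± 84.4, 223 ± 84.0 and 184 ± 94.0 CPM from low to high, n = 3 each). High was at 0.725, 0.552 and 0.464 of low in replicates 1, 2 and 3. Slc40a1 fell by 0.81 ± 0.11 on the log2 scale in high against low with the block (adjusted p = 0.0012 in edgeR), and the change was -0.73 ± 0.40 (adjusted p = 0.788) without it. All 9 fits with the block that left out 1 library kept the call, at log2 fold changes of -0.94 to -0.66. The summed 12 macrophage markers stood at 7579, 5473 and 4853 CPM in high replicates 1 to 3 and at 8149, 7463 and 7410 CPM in low replicates 1 to 3. That sum, which depends most on Gpnmb, was also lower in high within every replicate number. The part of these markers in the Slc40a1 values was not tested. In middle against low the value was -0.48 ± 0.11 with the block (adjusted p = 0.0603), and 0 of 7 members passed there, beside 1.84% of all genes. In replicates 2 and 3 alone Slc40a1 was the 1 member to pass in all 3 comparisons, with -0.98 ± 0.09 for high against low, -0.55 ± 0.09 for middle against low and -0.43 ± 0.09 for high against middle (adjusted p = 6.81e-06, 0.00205 and 0.0122 in edgeR). The shares of all genes passing there were 26.3%, 6.42% and 6.88%. The spread in those fits is only that between replicates 2 and 3, which over all genes lay closer to each other than to replicate 1.

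Tfrc, the importer, gave no call between gels. It stood at 427, 313 and 286 CPM in low replicates 1 to 3, at 626, 313 and 299 CPM in middle, and at 623, 387 and 272 CPM in high. Replicate 1 was higher in middle and high gels than in low, replicate 2 was higher only in the high gel, and replicate 3 stayed within a narrow range, so the groups overlapped. The log2 fold change of high over low was 0.26 ± 0.12 with the block (adjusted p = 0.185 in edgeR) and 0.32 ± 0.39 without it. Set against the storage gene, the ratio of Tfrc to Fth1 counts per kilobase was 0.00366, 0.00375 and 0.0026 in high replicates 1 to 3 and 0.00338, 0.00352 and 0.00371 in low replicates 1 to 3. Its mean log2 difference was -0.10 (exact permutation p = 0.9, two-sided), in a design whose smallest p is 0.1 and which therefore cannot pass the threshold. Erythroid precursors carry much transferrin receptor, and the 12 erythroid markers summed to 234 to 789 CPM in high and 450.5 to 554 CPM in low. The highest sum, 789 CPM, was in high replicate 1. Globin mRNA made most of that sum, Klf1 was at 0 in 2 libraries and no higher than 0.498 CPM, and the part of erythroid cells in the Tfrc values was not tested.

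Slc11a1 had the least spread among low libraries relative to its mean, and its gels were the most clearly separated. It stood at 787, 766 and 758 CPM in low replicates 1 to 3, at 1024, 829 and 843 CPM in middle, and at 1281, 1005 and 978 CPM in high. Every middle and every high library was above every low library, while middle and high overlapped. Among all genes 5.9% were higher in high, and 3.56% higher in middle, with no overlap with low. In either direction the shares were 12.7% and 7.76%, and 5.08% between high and middle. Slc11a1 was the 1 member without overlap, in both comparisons. It rose by 0.49 ± 0.09 on the log2 scale in high against low with the block (1.40-fold, adjusted p = 0.00656 in edgeR), and without the block the change was 0.50 ± 0.17 (adjusted p = 0.459). The call held in all 9 fits with the block that left out 1 library, at 0.39 to 0.55. Middle over low was 0.21 ± 0.09 with the block (adjusted p = 0.325), and high over middle 0.27 ± 0.09 (adjusted p = 0.339).

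Hmox1 differed between gels mainly in replicate 1. It stood at 1058, 791 and 740 CPM in low replicates 1 to 3, at 1576, 750 and 765 CPM in middle, and at 2056, 826 and 813 CPM in high. The groups overlapped, since replicates 2 and 3 of every gel lay between 740 and 826 CPM. The high gel was 1.94-fold above low in replicate 1, 1.04-fold in replicate 2 and 1.10-fold in replicate 3. Averaged over numbers the log2 fold change of high over low was 0.38 ± 0.15 with the block (adjusted p = 0.128 in edgeR) and 0.51 ± 0.44 (adjusted p = 0.937) without it. The difference between replicate 1 and replicates 2 and 3 in this effect was itself tested. It was 0.86 ± 0.12 on the log2 scale for high against low (adjusted p = 0.00143 in edgeR), where 8.36% of all genes passed, and 0.59 ± 0.12 for middle against low (adjusted p = 0.0263), where 2.6% passed. This test takes the single replicate 1 library of each gel to vary like replicates 2 and 3. Hmox1 was the 1 member to pass it. Ftl1 (0.61 ± 0.18, adjusted p = 0.0571) and Slc40a1 (0.51 ± 0.15, adjusted p = 0.0583) came next for high against low.

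Cd163 was scarce, with a mean of 3.49 CPM. It had 1, 34 and 40 counts in low replicates 1 to 3, 1, 66 and 96 in middle, and 5, 144 and 133 in high. In normalised counts these were 0.0754, 1.84 and 2.41 CPM in low, 0.0740, 3.35 and 6.56 CPM in middle, and 0.355, 8.14 and 8.61 CPM in high. Replicate 1 was near 0 in every gel, so the comparison of gels rests on replicates 2 and 3. There the high gel was 4.42-fold above low in replicate 2 (95% exact interval 3.02 to 6.63) and 3.57-fold in replicate 3 (2.49 to 5.22). In replicate 1 the 5 counts against 1 gave a ratio of 4.71 with an interval of 0.528 to 223. These intervals cover counting error only.

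Cd163 rose by 2.02 ± 0.29 on the log2 scale in high against low with the block (adjusted p = 0.00134 in edgeR), and kept the call in all 9 fits with the block that left out 1 library (1.78 to 2.34). Without the block it was 1.96 ± 1.40 (adjusted p = 0.892). Middle over low was 1.14 ± 0.30 with the block (adjusted p = 0.0906). In replicates 2 and 3 alone the same comparison passed (1.19 ± 0.32, adjusted p = 0.0464 in edgeR). The summed macrophage markers ranged over 4853 to 7579 CPM in high, against 7410 to 8149 CPM in low. Of the 12, 10 were detected in every library, among them Gpnmb (1165 to 5709 CPM over all libraries), Adgre1 (487 to 780 CPM), C1qb (45.7 to 381 CPM) and Marco (38.0 to 465 CPM). Vsig4 was at 0 in 4 libraries and Timd4 at 0 in 7, with neither above 0.222 CPM. The part of macrophages in the Cd163 values was not tested.

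**Figure D3:**
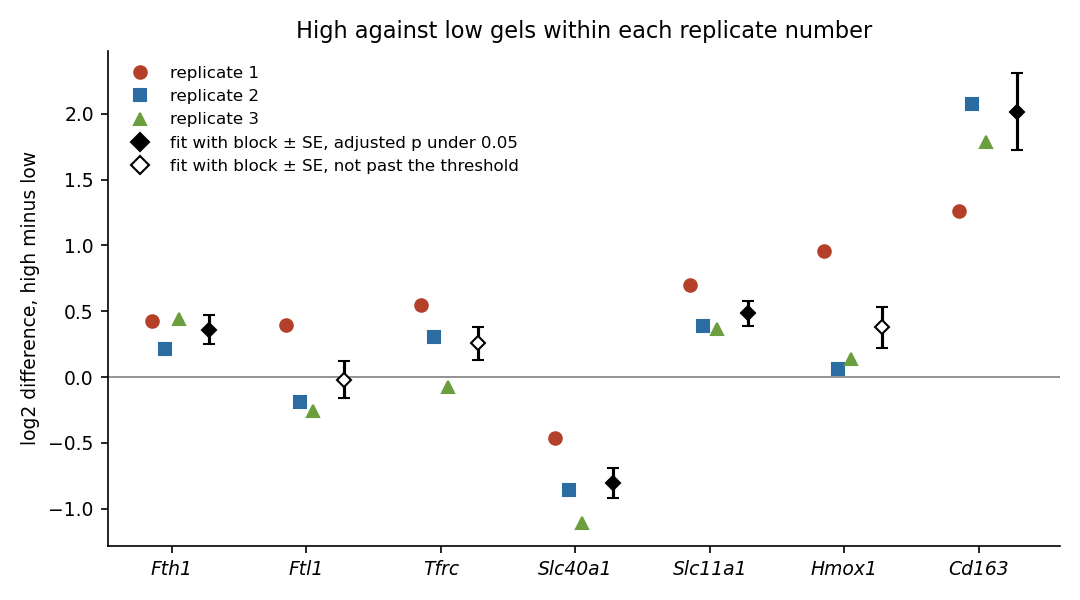
Log2 difference of high minus low gels for each gene, as coloured points within replicate numbers 1, 2 and 3 (log2 CPM with a prior count of 2) and as black diamonds ± SE from the edgeR fit with the replicate number as a block (filled, adjusted p under 0.05). Fth1, Slc11a1 and Cd163 lie above 0 and Slc40a1 below 0 in all 3 numbers, and the Hmox1 point of replicate 1 stands apart at 0.96. The Cd163 point of replicate 1 rests on 5 counts against 1.

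For 6 of the 7 members, Slc11a1 aside, the estimated difference between replicate 1 and the other numbers was larger than that between high and low gels. Between replicate 1 and replicates 2 and 3, in the fit with stiffness and number, 6 members were higher in replicate 1 and 1 was lower, all past the test, beside 32.9% of all genes higher and 32.5% lower. Ftl1 was higher by 1.28 ± 0.12 on the log2 scale (2.43-fold), Hmox1 by 0.97 ± 0.13, Slc40a1 by 0.90 ± 0.10, Tfrc by 0.83 ± 0.10 and Fth1 by 0.67 ± 0.09, with adjusted p from 2.53e-06 to 8.96e-05 in edgeR. Slc11a1 differed least, by 0.24 ± 0.08 (adjusted p = 0.0224). Cd163 was lower in replicate 1: over all gels its 7 counts there, against 513 in replicates 2 and 3, gave a ratio of normalised counts of 0.0342 (95% exact interval 0.0137 to 0.0711). The neutrophil and macrophage marker sums given above move with the same division, and their part in these values was not tested. The labels do not say what a replicate number shares.

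Per length, the order of mean levels was Fth1, Ftl1, Hmox1, Slc11a1, Tfrc, Slc40a1 and Cd163, at 21614, 7480, 661, 214, 76.5, 68.1 and 0.775 CPM per kilobase over all 9 libraries. Tfrc and Slc40a1, neighbours in this order, changed places between gels: in high gels Tfrc had 121, 75.2 and 52.8 CPM per kilobase in replicates 1 to 3, above Slc40a1 with 83.6, 40.8 and 33.9. In low gels Tfrc had 82.9, 60.9 and 55.5 CPM per kilobase, below Slc40a1 with 115, 73.9 and 73.2. Per kilobase the importer was thus above the exporter in each high library and below it in each low library. In middle gels the importer was above it as well, with 122, 60.7 and 58.0 CPM per kilobase against 91.8, 48.5 and 51.9 for Slc40a1. This swap was noticed after the values were seen and was not tested. It depends on the exonic sizes, 5149 bases for Tfrc and 3487 bases for Slc40a1. Not divided by size, Tfrc was above Slc40a1 in every library. In low replicates 1 to 3 the levels were 427, 313 and 286 CPM for Tfrc and 403, 258 and 255 CPM for Slc40a1.

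The genes whose pattern over the gels was most like that of a member were found by correlating log2 CPM over the 9 libraries after removing the mean of each replicate number. These genes were picked for the highest r among about 9346 genes, so their values of r are descriptions and not tests. For Slc40a1 they were Mfsd12 (0.996), Cipc (0.996) and Nceh1 (0.994), and for Slc11a1 Ssr1 (0.991), Zfand2b (0.991) and Cisd2 (0.985). For Fth1 they were Smyd5 (0.991), Clec4d (0.987) and Nit1 (0.987), for Ftl1 Crip1, Snapc2 and Ubb (0.976 to 0.985), and for Tfrc Sec11c, Tomm40 and Mrpl43 (0.971 to 0.983). Hmox1 was closest to Map1lc3b (0.994), Bsg (0.982) and Car13 (0.981), and Cd163 to Plk2 (0.99), Sppl3 (0.989) and Ercc4 (0.983). Among the members themselves, the closest pair was Fth1 with Slc11a1 (0.942) and the most opposed pair was Slc40a1 with Cd163 (-0.88). Fth1 and Ftl1, the chains of 1 protein shell, had an r of 0.132.

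Among other genes tied to iron and heme, regulators of iron-recycling macrophages included, 5 rose and 5 fell in high against low gels. This count and those that follow come from the fit with the block, where 15.5% of all genes passed. The number tested is given list by list, and the lists were not tested as sets. Without the block 0 genes of these lists passed in edgeR. Of 8 tested genes of iron uptake and reduction, 2 rose and 1 fell, with a median log2 fold change of 0.02. Slc39a14, a transporter of zinc and non-transferrin iron, was at 19.2, 29.6 and 31.9 CPM in high replicates 1 to 3, against 9.80, 10.5 and 11.4 CPM in low replicates 1 to 3. High and low did not overlap, which held for 12.7% of all tested genes in either direction. Slc39a14 rose by 1.33 ± 0.13 (adjusted p = 1.76e-04 in edgeR). Of the list genes named below, Hmox2, Isca1, Il10 and Nr1h3 did not overlap between high and low either. Lcn2, lipocalin 2, which binds bacterial siderophores and is stored in neutrophil granules, rose by 1.32 ± 0.16. Its levels were 1294, 3160 and 3738 CPM in high and 420, 1529 and 1489 CPM in low. Ltf, lactoferrin, an iron-binding granule protein, fell by 1.18 ± 0.29, close to the threshold (adjusted p = 0.0477 in edgeR), with 62.4, 586 and 427 CPM in high and 75.5, 1622 and 1457 CPM in low. The summed neutrophil markers stood at 4425, 15478 and 15718 CPM in high replicates 1 to 3 and at 3721, 23640 and 20900.0 CPM in low replicates 1 to 3, and their part in the values of these granule genes was not tested. The effect of high against low on Ltf differed between replicate 1 and replicates 2 and 3 (1.33 ± 0.24 on the log2 scale, adjusted p = 0.00785 in edgeR).

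Of 11 tested genes of heme breakdown and transport, 1 rose and 2 fell (median 0.20). Hp, haptoglobin, which binds free hemoglobin, rose by 1.01 ± 0.14, with 354, 1010 and 955 CPM in high and 149, 569 and 476 CPM in low. Hmox2, the constitutive heme oxygenase, fell by 0.48 ± 0.08 (adjusted p = 0.00241 in edgeR), with 106, 117 and 109 CPM in high and 147, 163 and 155 CPM in low, without overlap. Flvcr1, a heme exporter or choline carrier, fell by 0.33 ± 0.08. Of 13 tested genes of heme synthesis, 0 rose and 0 fell (median 0.02), the most abundant being Slc25a37, the mitochondrial iron importer (0.29 ± 0.11), and Alas1, the rate-limiting synthase (0.12 ± 0.08). Of 15 genes of iron-sulfur cluster assembly, 1 rose, Isca1 (0.49 ± 0.11), and 0 fell (median 0.16).

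Of 10 genes of iron sensing and ferritin turnover, 0 rose and 0 fell (median -0.02). Fbxl5, the iron-sensing adaptor for degradation of an iron regulatory protein, was at 0.26 ± 0.11 (adjusted p = 0.14 in edgeR). Nfe2l2, which encodes the NRF2 factor that drives Hmox1 and ferritin genes, was at 0.00 ± 0.08, with 574 to 582 CPM in high and 563 to 586 CPM in low. Of 3 tested genes of iron export and the hepcidin axis, 0 passed, Cp (0.02 ± 0.37) and Hfe (0.25 ± 0.11) being the most abundant. Cp, ceruloplasmin, a ferroxidase, was at 2.99, 38.5 and 33.7 CPM in high replicates 1 to 3 and at 7.09, 25.4 and 30.4 CPM in low replicates 1 to 3, lower in high in replicate 1 and higher in replicates 2 and 3. That difference in effect passed its test, at -1.62 ± 0.31 for high against low and -1.97 ± 0.32 for middle against low (adjusted p = 0.00704 and 0.00664 in edgeR). Of 5 regulators known from iron-recycling macrophages, 1 rose and 2 fell (median 0.13). Il10, an anti-inflammatory cytokine, rose by 1.60 ± 0.10, while Maf (-1.13 ± 0.13) and Nr1h3 (-1.05 ± 0.23), transcription factors of macrophages, fell. Nr1h3 was at 23.5, 13.3 and 10.5 CPM in high replicates 1 to 3 and at 27.6, 35.4 and 31.2 CPM in low replicates 1 to 3. Its effect was smaller in replicate 1 than in replicates 2 and 3 (difference 1.25 ± 0.23, adjusted p = 0.0062 in edgeR), and its F test among the gels did not pass with the block (adjusted p = 0.0533).

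**Figure D4:**
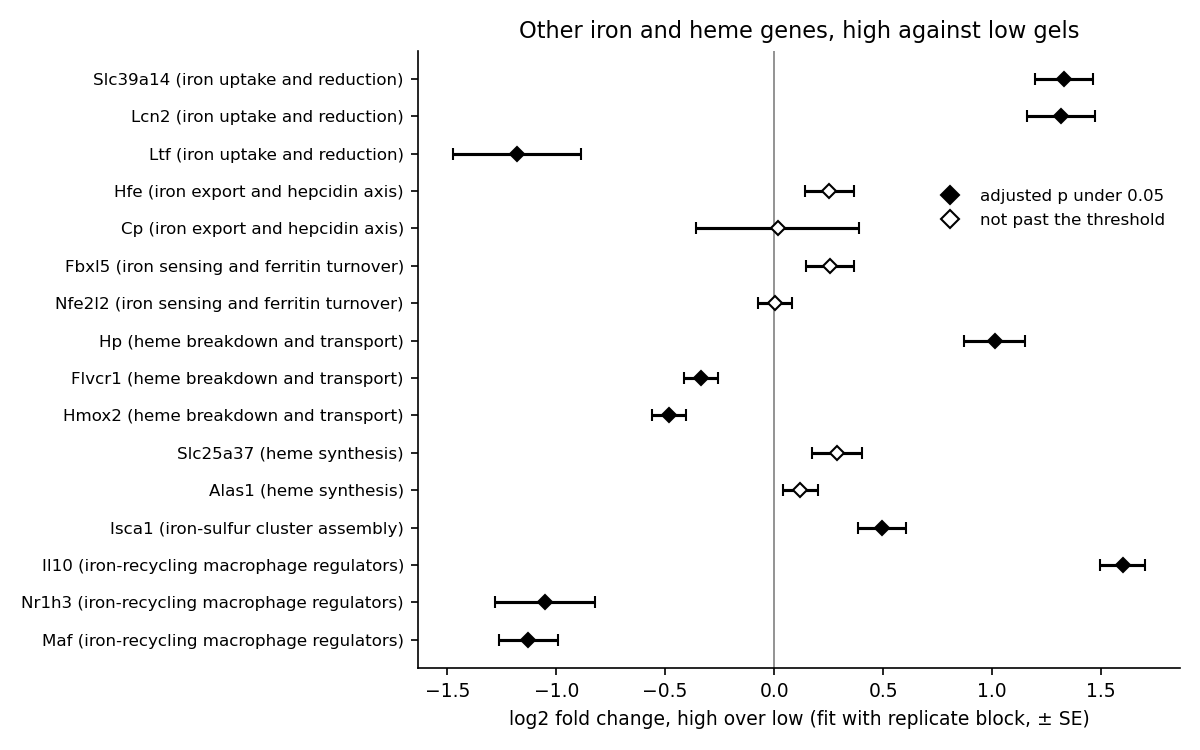
Log2 fold change of high over low gels ± SE from the edgeR fit with the replicate number as a block, for the named genes of 7 lists of iron and heme metabolism. Filled diamonds passed an adjusted p under 0.05: Slc39a14, Lcn2, Hp, Isca1 and Il10 lie above 0, and Ltf, Flvcr1, Hmox2, Nr1h3 and Maf below 0.

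In middle against low gels, 222 genes (1.84%) passed with the block, and 5 genes of these lists were among them. They were Slc39a14 (0.73), Lcn2 (0.92), Hp (0.70) and Il10 (0.94), which rose, and Hmox2 (-0.35), which fell. The Lcn2 effect differed between replicate 1 and replicates 2 and 3 there (0.85 ± 0.16, adjusted p = 0.0143 in edgeR). Each moved in the same direction as in high against low gels, a comparison that shares its low libraries. Between high and middle gels 2 genes passed with the block (0.0165%), neither of them in these lists or among the members.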

How the data were processed

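RNA was sequenced in 9 libraries. The authors' deposited files hold raw counts per gene, the authors' FPKM and an exonic gene size. The submitters' processing notes name cutadapt 1.9.1, HISAT2 2.0.1, HTSeq 0.6.1, DESeq2 and GRCm39, without settings in the sources used here. FPKM recomputed from the deposited counts and sizes was equal to the deposited FPKM within rounding, and was not used further.

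Counts were fitted in R 4.3.3 with edgeR 4.0.16 (filterByExpr, TMM, robust quasi-likelihood over all 9 libraries) and Benjamini-Hochberg adjustment over 12094 genes. Standard errors were taken as |log2 fold change| over √F. DESeq2 1.42.0, other scalings, no filter, fits of 2 groups, replicates 2 and 3 alone and leaving out libraries were the alternatives. Scripts were checked on simulated counts. Ratios of libraries were tested with SciPy 1.17.1.

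The planned fit has no replicate term. As a check of pairing, deviations from group means were correlated: r was 0.595 to 0.856 in the 9 same-number pairs, all over the limit of 0.1, so values with the block are printed. Replicates 2 and 3 of different gels had r of 0.552 to 0.698, so those numbers are hardly distinct from each other. Pairs of replicate 1 with 2 or 3 had r of -0.777 to -0.65. Unequal numbers 2 and 3 were over the limit too, so the check cannot tell a pairing of equal numbers from the split of replicate 1. Biological coefficients of variation were 0.115 (block) and 0.337 (no block).

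The members, the 8 lists (89 genes, 86 in the files) and the contrast of replicate numbers were chosen with earlier results of these data known. From each list, up to 4 genes called in high against low with the block are named, or else its 2 most abundant. Near patterns are the 3 highest correlations among genes averaging 5 CPM or more. Motif coordinates are on GRCm38, not the files' build. At these depths counting error matters for Cd163 alone among the members.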

Additional observations from a re-analysis of the deposited data

Results flagged for a closer look

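The effect of stiffness on Hmox1 differed between replicate 1 and replicates 2 and 3 by a test of the difference itself. The log2 fold change of high against low in replicate 1 exceeded that in replicates 2 and 3 by 0.86 ± 0.12, and that of middle against low by 0.59 ± 0.12 (adjusted p = 0.00143 and 0.0263 in edgeR). Hmox1 stood at 2056 CPM in high replicate 1 against 1058 CPM in low replicate 1, and at 826 and 813 CPM in high replicates 2 and 3 against 791 and 740 CPM in low replicates 2 and 3. Replicate 1 holds a single library in each gel, and the labels do not say what the number shares.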

How the results depend on the processing

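Without the block, 11 genes and 0 members passed in high against low. With the replicate number as a block 1869 genes and 4 members passed, in replicates 2 and 3 alone 3207 and 4 (with the block 3183 and 4), and with DESeq2 333 and 1. A fit of the 2 groups alone called 0 genes. Leaving out 1 library gave 0 to 41 genes and 0 members, and with the block 605 to 2469 genes and 3 to 4 members, and these last fits, the block within replicates 2 and 3 and those of the next sentence were chosen after seeing the data. With the block, DESeq2 size factors called 1905 genes and 4 members, no filter on low counts 1859 and 4, and library totals 1997 and 3, without Fth1. In middle against low 0 genes passed, against 222 with the block, 784 genes and 2 members in replicates 2 and 3 alone, and 48 genes with DESeq2 (318 at an unadjusted p under 0.05). In high against middle 0 passed, against 2 with the block, 840 genes and 1 member in replicates 2 and 3 alone, and 2 with DESeq2 (179 unadjusted). The F test among the gels called 0 genes (551 unadjusted), 1089 and 3 members with the block, 2490 and 3 in replicates 2 and 3 alone, 197 with DESeq2, and 0 to 12 without 1 library.

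Some member estimates changed sign, and the cause was not tested. Ftl1 was at -0.018 (block) and -0.22 (replicates 2 and 3 alone) for high against low, at -0.049 and -0.17 for middle against low, and at -0.049 in replicates 2 and 3 for high against middle. Hmox1 was at -0.018 in replicates 2 and 3 for middle against low. Leaving out 1 library without the block, high against low ranged over -0.60 to 0.51 for Ftl1, -0.072 to 0.75 for Hmox1 and -0.051 to 0.56 for Tfrc. Middle against low ranged over -0.096 to 0.40 for Fth1, -0.55 to 0.40 for Ftl1, -0.19 to 0.43 for Hmox1 and -0.16 to 0.46 for Tfrc. High against middle ranged over -0.083 to 0.48 for Fth1, -0.63 to 0.68 for Ftl1, -0.33 to 0.71 for Hmox1, -0.78 to 0.082 for Slc40a1 and -0.32 to 0.49 for Tfrc. For high against low the log2 ratio of Tfrc to Fth1 ranged over -0.20 to 0.069, positive only without high replicate 3. The ferritin share ranged over -0.222 to 0.929 percentage points, negative only without high replicate 1. Without the block, scaling and the filter on low counts changed no direction of a member, and 0 members passed between gels under any of them.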
